A study of Mus musculus with 6 samples.

Results

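Interferon response genes are genes whose transcription rises when a cell senses an interferon, and 42 of them, chosen by name, are described here in epididymal white adipose tissue of the mouse, the visceral fat pad beside the testis. Of the 42 genes, 41 were in the deposited table of 21829 genes, and Mx2 was not analysed here. Levels are in FPKM, fragments mapped to a gene scaled to its transcript length and to the library's mapped fragments. A minimum mean of 1 FPKM was reached by 40 members, which were tested among 12539 genes. Oas3 fell under that minimum with a mean of 0.275 FPKM. The 6 libraries came from male mice of the C57BL/6J strain, 20 weeks old and fed a normal diet: 3 labelled wild type (WT), described as littermates, and 3 labelled ZFP251 KO. The labels do not give the allele, its promoter or Cre driver, or the number of animals behind a library. The p-values therefore set a group difference only against the spread between libraries of a group, which may be technical.

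Cells sense viral or misplaced nucleic acid through receptors such as RIG-I and MDA5 and respond by making type I interferon. The interferon receptors signal through JAK kinases, and type I interferon activates a complex with STAT2 and IRF9 that binds the interferon-stimulated response element (ISRE). Interferon gamma acts through a different DNA element, the gamma-activated site (GAS). The induced proteins degrade or sequester viral RNA, modify other proteins with the ubiquitin-like ISG15, disrupt pathogen vacuoles and feed peptides to MHC class I. In fat, these genes are read in macrophages, endothelium and adipocytes, so fewer cells of a type and less RNA per cell cannot be told apart in these bulk samples.

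The promoters are shown because the members are defined by their response to interferon and not by sequence. Windows from 250 bases before to 50 bases after the gene start, from RefSeq on GRCm38.p6, were found for 32 of the 42 members. The ISRE core was searched on both strands as GAAA, any 2 bases and GAAA again, and 17 of the 32 members held it, or 53.1%, against 3.99% of 27025 genes with a window. The GAS was searched as TTC, any 3 bases and GAA, which reads the same on both strands, and 9 of the 32 members held it, or 28.1%, against 9.55% of all genes with a window. A match is a string of letters and not a measured binding site. The 2 motifs can overlap, as they do at Bst2 and Ifitm3. The 30-base stretches below belong to members of small p, with the ISRE core in capitals, overlapping matches joined, each read 5′ to 3′ on the strand of its gene.
Isg15, chr4:156200871-156200900, minus strand: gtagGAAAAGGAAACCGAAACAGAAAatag
Igtp, chr11:58199512-58199541, plus strand: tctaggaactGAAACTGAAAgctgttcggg
Oas1a, chr5:120907523-120907552, minus strand: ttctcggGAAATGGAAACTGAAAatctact
Gbp2, chr3:142620594-142620623, plus strand: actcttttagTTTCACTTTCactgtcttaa
Bst2, chr8:71537580-71537609, minus strand: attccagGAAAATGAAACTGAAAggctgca
Ifitm3, chr7:141010706-141010735, minus strand: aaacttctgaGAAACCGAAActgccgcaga
Eif2ak2, chr17:78882535-78882564, minus strand: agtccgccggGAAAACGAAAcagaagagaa
Isg15 held 3 overlapping matches, from 78 to 57 bases before its start. Gbp2 held its match on the opposite strand, where the core reads TTTC, any 2 bases and TTTC. Psmb8 had no ISRE core match in its window and 1 GAS match, given here in capitals.
Psmb8, chr17:34198088-34198116, plus strand: tcctccgctgTTCCCAGAAgatgcccccc
The whole 250 bases before the start are printed for the member with the smallest p, Isg15, and for Cmpk2, the one member with every value higher in the libraries labelled KO, with any ISRE core match in capitals.
Isg15, chr4:156200819-156201068, minus strand: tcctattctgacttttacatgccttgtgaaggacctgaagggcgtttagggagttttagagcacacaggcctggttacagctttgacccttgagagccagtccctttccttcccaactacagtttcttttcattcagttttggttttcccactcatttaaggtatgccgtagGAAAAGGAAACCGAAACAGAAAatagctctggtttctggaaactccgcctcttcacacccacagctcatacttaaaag
Cmpk2, chr12:26468965-26469214, plus strand: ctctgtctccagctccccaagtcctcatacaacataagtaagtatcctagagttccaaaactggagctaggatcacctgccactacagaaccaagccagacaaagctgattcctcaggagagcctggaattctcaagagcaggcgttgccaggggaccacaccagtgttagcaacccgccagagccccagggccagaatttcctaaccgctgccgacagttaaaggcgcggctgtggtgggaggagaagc
Cmpk2 had no match to either motif in its window. The 16 tested members with an ISRE core match had a median log2 difference of -0.27 between the groups, and the 15 with a window and no match one of -0.16. The ranges of both overlapped, from -0.67 to -0.15 and from -0.51 to 0.31.

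Zfp251, the gene named in the KO label, did not bear that label out. Its mean was 3.41 ± 0.408 FPKM in WT and a higher 6.27 ± 0.359 FPKM in KO (SD, n = 3 each), with an exact two-sided permutation p of 0.1, the smallest that 3 libraries against 3 can give. A gene-level value does not show which exons were read. Every direction below is that of the libraries labelled KO, numbered KO 1 to KO 3, against WT 1 to WT 3. The 10 adipocyte markers were abundant in all libraries and summed to between 37895 and 94561 FPKM, as the tissue label has it. All FPKM summed to between 426966 and 637902 per library, with the highest sum in WT 3, and without a known read depth no interval for counting error can be given.

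Across the interferon response genes the levels were lower in the libraries labelled KO in 38 of 40 tested genes, by a modest amount. The median log2 difference, KO minus WT on the log2(FPKM + 1) scale, was -0.27, against -0.05 for all 12539 genes tested. Below 0 were 59.2% of all genes tested. In 20 of the 40 members every library labelled KO was below every WT library, against 12.2% of all genes tested, and in 1 member every library labelled KO was above, against 10.1%. No member passed the threshold of 0.05 on limma's p adjusted by the Benjamini-Hochberg method over all genes tested, and neither did any other gene (0% of 12539). At an unadjusted limma p under 0.05, 13 members were lower, against 4.43% of all genes tested, and 0 were higher, against 9.13%. The count over all genes moved with the setting too. Without WT 2 the 13 members became 7, and the 555 genes lower at that p among all 12539 became 1051. Without KO 1 they became 7 of 175 genes, without KO 2 5 of 188, and with a covariate for ciliated-cell transcripts 2 of 98. Without WT 3 the 20 members without overlap became 32, and the 1526 such genes among all tested became 2239. With sample weights 13 members passed the adjusted threshold, all lower, among 970 genes passing. The members are induced by the same signals, so their counts are not counts of independent events.

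**Figure D1:**
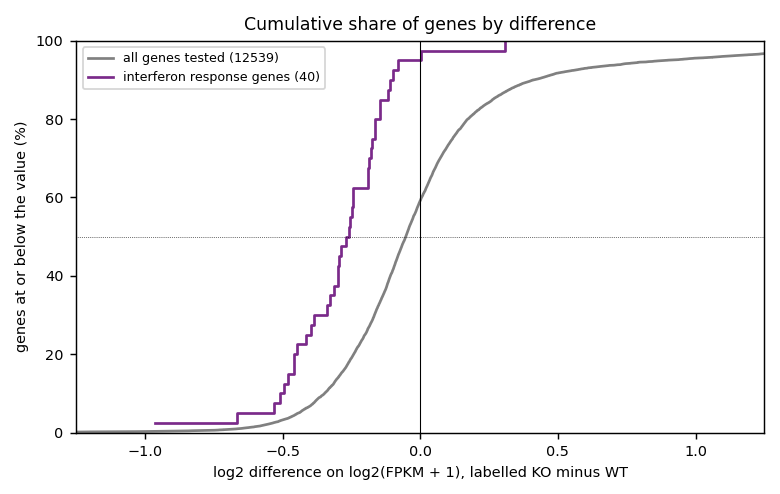
Cumulative share of genes (vertical axis, %) at or below each log2 difference between the libraries labelled KO and WT (horizontal axis, log2(FPKM + 1) scale), for 40 interferon response genes and all 12539 genes tested. The members' curve lies to the left, with a median of -0.27 against -0.05, and 38 of 40 members lie below 0.

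Ifi27l2a, a small hydrophobic protein induced by interferon, was by far the most abundant member. The WT libraries, in order of number, had 4052, 5432 and 12787 FPKM, and the libraries labelled KO had 3008, 3287 and 3839 FPKM. This gene ranked between 4th and 7th of all genes in each library and took between 0.704% and 2.00% of the summed FPKM. The groups did not overlap, and WT 3 alone lay far above the other 5 libraries. The means were 7424 ± 4696 FPKM in WT and 3378 ± 423 FPKM in the libraries labelled KO (SD, n = 3 each). On the log2 scale they differed by -0.96, standard error 0.45 (limma adjusted p = 0.413, exact two-sided permutation p = 0.1). Without WT 3 it was -0.48 (limma adjusted p = 0.36, from 0.188 to 1.00 over the alternatives), and with the ciliated-cell covariate it was 0.050.

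Ifi27l2a lies at chromosome 12, from 103442167 to 103443680 in GRCm38, on the minus strand, and its transcript is 463 nt long. Short transcripts as a class were high in WT 3: over the 702 tested genes with transcripts under 1000 nt the median of its log2 deviations from each gene's mean was 0.56, against between -0.17 and -0.03 in the other 5 libraries. After correction for length and GC content the log2 difference of Ifi27l2a was -0.85, with quantile normalization -0.36 and with sample weights -0.44. The summed erythroid markers were also highest in WT 3, at 3533 FPKM against 505 to 1826 FPKM in the others. What part either has in the Ifi27l2a values was not tested.

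The ubiquitin-like modifier Isg15 had the smallest p of all members. It had 13.4, 13.2 and 12.8 FPKM in WT and 6.79, 9.24 and 7.86 FPKM in the libraries labelled KO, numbers 1 to 3 in order here and below. The WT values were close together and every library labelled KO lay below them. The mean was 39.4% lower, 7.96 ± 1.23 against 13.1 ± 0.322 FPKM (SD, n = 3 each), and the log2 difference was -0.67, standard error 0.13 (limma adjusted p = 0.223). Its transcript of 756 nt is also short, and after correction for length and GC content the log2 difference was -0.59. Isg15 lies at chromosome 4, from 156199424 to 156200818 on the minus strand.

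Enzymes that handle ISG15 also had lower means in the libraries labelled KO, by unequal amounts. Usp18, the protease that removes ISG15 and blocks the type I interferon receptor, had 3.34, 3.96 and 2.42 FPKM in WT and 2.54, 2.38 and 2.34 FPKM in the libraries labelled KO. KO 1 lay above WT 3, so the groups overlapped. Herc6, the mouse ligase that attaches ISG15, had 3.63, 3.66 and 2.56 FPKM in WT and 2.70, 3.52 and 2.90 FPKM in the libraries labelled KO, a log2 difference of -0.08 with a standard error of 0.16. WT 3 was the lowest of its 6 values. Ube2l6, the conjugating enzyme for ISG15 in mouse and no member, had 21.0 ± 4.24 FPKM in WT and 13.1 ± 0.734 FPKM in the libraries labelled KO (SD, n = 3 each), a log2 difference of -0.62 (limma adjusted p = 0.223).

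**Figure D2:**
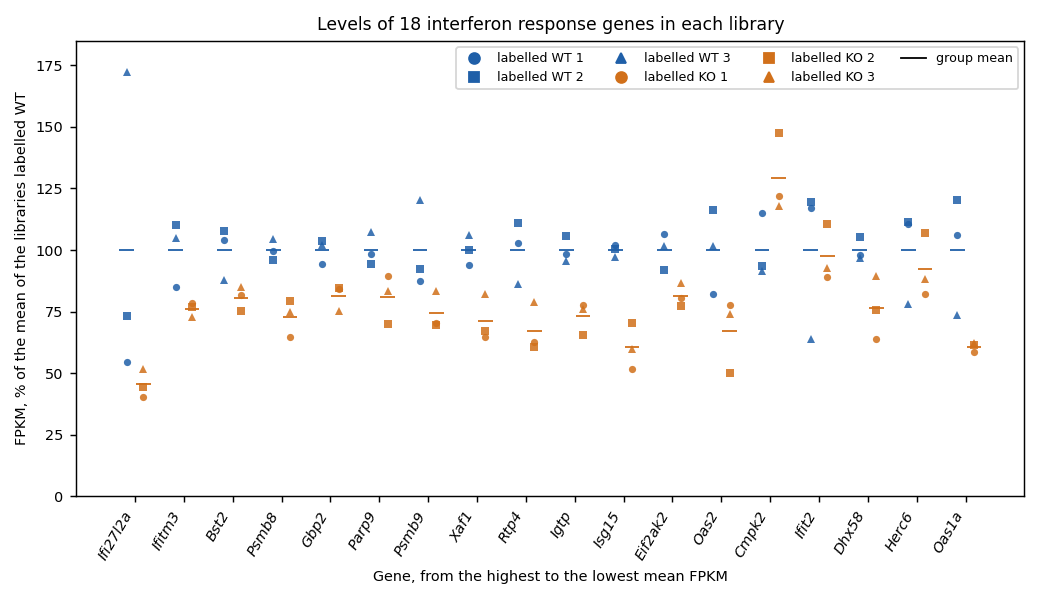
Levels of 18 members in each library (vertical axis, FPKM as % of the mean of the libraries labelled WT, horizontal bars at group means) with genes ordered by mean level. In 15 of the 18 genes shown all libraries labelled KO lie below all WT libraries, Cmpk2 lies above them, and Ifit2 and Herc6 overlap. The genes were picked for a small p, a high mean or a high log2 difference, so the choice largely fixed that count. Over all tested members 20 of 40 are lower without overlap, against 12.2% of all genes tested.

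All 4 sensors had lower means in the libraries labelled KO. Dhx58 encodes LGP2, which regulates the RNA helicases RIG-I and MDA5, and had 4.19, 4.51 and 4.14 FPKM in WT and 2.74, 3.24 and 3.82 FPKM in the libraries labelled KO. Its groups did not overlap, though KO 3 came close, and its log2 difference was -0.31, standard error 0.13 (limma adjusted p = 0.376). Ddx58, which encodes RIG-I, also did not overlap, at 10.3 ± 0.434 against 9.21 ± 0.132 FPKM (SD, n = 3 each), with a mean 10.6% lower. Ifih1, which encodes MDA5, and Zbp1, a sensor of Z-form nucleic acid, overlapped, with log2 differences of -0.19 and -0.24.

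The 4 transcription factors of the response had small differences, with a median of -0.16 on the log2 scale. Irf1, which drives many interferon gamma targets, had 33.6, 34.6 and 33.0 FPKM in WT and 32.2, 25.8 and 32.3 FPKM in the libraries labelled KO. Its groups did not overlap, but KO 1 and KO 3 lay just under WT 3. Stat2, Irf9 and Irf7 overlapped, with log2 differences of -0.24, -0.10 and -0.16. In Irf7, the factor that amplifies interferon production, WT 2 was highest at 27.1 FPKM and WT 3 lowest at 14.9 FPKM, so the WT libraries enclosed all 3 labelled KO.

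Among the antiviral RNA-binding proteins, the tested OAS genes had log2 differences between -0.51 and -0.46 and the IFIT genes between -0.34 and 0.00, a contrast that was not tested. The OAS enzymes make the 2-5A messenger that turns on RNase L. Oas1a had 3.43, 3.88 and 2.37 FPKM in WT and 1.89, 1.98 and 2.01 FPKM in the libraries labelled KO, with no overlap and a log2 difference of -0.50 with a standard error of 0.17 (limma adjusted p = 0.276). For Oas2 the values were 4.82, 6.80 and 5.95 FPKM in WT and 4.54, 2.94 and 4.33 FPKM in the libraries labelled KO, again with no overlap. Its log2 difference was -0.48, standard error 0.18. The OAS-like genes Oasl1 and Oasl2 had log2 differences of -0.51 and -0.46, but overlapped, since KO 3 lay above WT 3 in both. Oas3, under the filter, had between 0.187 and 0.503 FPKM in WT and between 0.082 and 0.324 FPKM in the libraries labelled KO.

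Eif2ak2 encodes PKR, the kinase that halts translation on sensing double-stranded RNA. It had 9.0, 7.74 and 8.58 FPKM in WT and 6.79, 6.53 and 7.31 FPKM in the libraries labelled KO. These groups lay apart, with a log2 difference of -0.26 and a standard error of 0.11 (limma adjusted p = 0.351). The IFIT proteins bind foreign RNA ends. Ifit3 did not overlap, with a mean of 12.7 ± 1.94 FPKM in WT and 9.88 ± 1.84 FPKM in the libraries labelled KO (SD, n = 3 each), whereas Ifit1 overlapped, with a log2 difference of -0.33. Ifit2 had 5.70, 5.82 and 3.11 FPKM in WT and 4.33, 5.40 and 4.52 FPKM in the libraries labelled KO. WT 3 was its lowest value, and the log2 difference of 0.00 had a standard error of 0.22. That difference was -0.24 without WT 3, -0.08 without KO 2, -0.12 with quantile normalization, -0.33 with the ciliated-cell covariate and -0.23 with sample weights. The OAS and IFIT genes sit in clusters of near copies, and reads shared with paralogs such as Oas1g and Ifit3b, and likewise with copies of Ifi27l2a, Trim30a and the Gbp genes, could have been divided in ways the table does not show.

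The 5 tested GTPases of the interferon response all had lower means in the libraries labelled KO, with log2 differences from -0.42 to -0.12. Igtp, which encodes the p47 GTPase Irgm3, had 12.6, 13.5 and 12.2 FPKM in WT and 9.92, 8.36 and 9.69 FPKM in the libraries labelled KO. Its groups were well apart, with a log2 difference of -0.42 and a standard error of 0.11 (limma adjusted p = 0.223). Gbp2, a guanylate-binding protein that attacks pathogen vacuoles, had 26.6, 29.2 and 28.8 FPKM in WT and 23.7, 23.8 and 21.2 FPKM in the libraries labelled KO. It did not overlap either, and its mean was 18.8% lower. Irgm1, a regulator of the p47 GTPases, and Gbp3 were also without overlap, with means lower by 16.8% and 13.1%. Mx1, a dynamin-like GTPase whose C57BL/6J allele is defective, was near the minimum with a mean of 1.00 FPKM, and its groups overlapped.

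Rsad2 and Cmpk2 are neighbours on chromosome 12, transcribed in opposite directions, and they did not behave alike. Cmpk2, a nucleotide kinase, had 4.90, 3.99 and 3.90 FPKM in WT and 5.21, 6.30 and 5.03 FPKM in the libraries labelled KO. All 3 libraries labelled KO were above WT, with a log2 difference of 0.31 and a standard error of 0.14 (limma adjusted p = 0.385). With the ciliated-cell covariate that difference was 0.01. Rsad2 encodes viperin, which makes a chain-terminating nucleotide, and had 7.25 FPKM in WT 1 against 4.44 to 4.78 FPKM in all 5 other libraries. The difference between these neighbours was not tested.

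Both membrane restriction factors were abundant and lay apart between the groups. Ifitm3, which blocks viral entry from endosomes, had 290, 376 and 358 FPKM in WT and 268, 263 and 249 FPKM in the libraries labelled KO. WT 1 was closest to the libraries labelled KO, and the log2 difference was -0.38, standard error 0.15 (limma adjusted p = 0.326). Bst2, or tetherin, which holds budding virus at the cell surface, had 57.0, 59.0 and 48.1 FPKM in WT and 44.6, 41.1 and 46.5 FPKM in the libraries labelled KO. WT 3 and KO 3 lay close together, and the log2 difference was -0.30. The transcripts of Ifitm3 and Bst2, of 678 and 792 nt, are also short. After correction for length and GC content the log2 differences were -0.29 for Ifitm3 and -0.26 for Bst2. Over the alternatives Ifitm3 ran from -0.50 to -0.10 and Bst2 from -0.39 to -0.16, both nearest 0 with quantile normalization.

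Parp9, Dtx3l and Parp14 lie within chromosome 16 from 35832874 to 35972605, and their proteins act in ADP-ribosylation and ubiquitination of interferon signalling and DNA repair factors. Parp9 had 23.05, 22.1 and 25.1 FPKM in WT and 20.9, 16.4 and 19.6 FPKM in the libraries labelled KO. These did not overlap, with a log2 difference of -0.30 and a standard error of 0.12 (limma adjusted p = 0.361). Dtx3l, the E3 ligase partner of PARP9, overlapped with WT 3 low, at 10.1 FPKM against 15.4 and 13.6 FPKM in WT 1 and WT 2, and so did Parp14, at 9.19 FPKM against 13.2 and 12.9 FPKM. Dtx3l and Parp14 have long transcripts, of 5309 and 7417 nt. Over all 4333 tested genes with transcripts over 4000 nt the median deviation of WT 3 was -0.12, the opposite of its deviation for short ones.

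Of the other interferon-induced factors, Rtp4 and Xaf1 stood apart between the groups and Ifi35, Ifi44 and Trim30a did not. Rtp4, a receptor transporter protein that also restricts viruses, had 16.0, 17.2 and 13.4 FPKM in WT and 9.72, 9.40 and 12.2 FPKM in the libraries labelled KO. Its mean was 32.7% lower and its log2 difference was -0.53, standard error 0.14 (limma adjusted p = 0.223). Xaf1, a pro-apoptotic binding partner of XIAP, had 14.8, 15.7 and 16.7 FPKM in WT and 10.2, 10.6 and 12.9 FPKM in the libraries labelled KO. In both genes KO 3 was the library labelled KO nearest to WT. Ifi35, Ifi44 and Trim30a had log2 differences between -0.18 and -0.11.

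**Figure D3:**
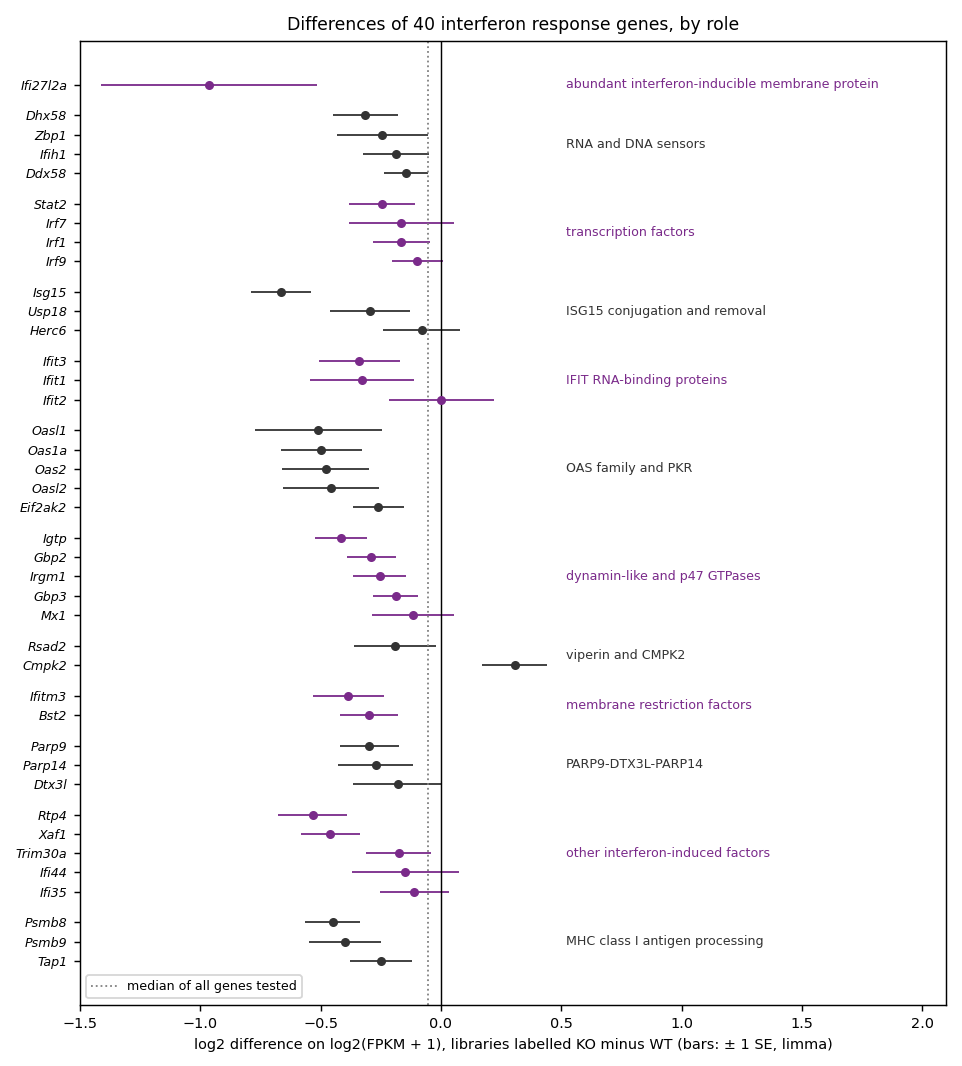
Log2 differences of 40 members between the libraries labelled KO and WT (horizontal axis, log2(FPKM + 1) scale, bars of 1 standard error from limma) grouped by role. Apart from Ifit2 and Cmpk2 all points lie below 0, and Ifi27l2a has both the lowest value, -0.96, and the widest bar.

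Psmb8, Psmb9 and Tap1 lie side by side in the MHC region, within chromosome 17 from 34181987 to 34201454. Psmb8, a catalytic subunit of the immunoproteasome, had 53.3, 51.3 and 55.9 FPKM in WT and 34.6, 42.4 and 40.1 FPKM in the libraries labelled KO. The groups were well apart, the mean was 27.0% lower and the log2 difference was -0.45, standard error 0.11 (limma adjusted p = 0.223). Psmb9, another of its catalytic subunits, had 20.0, 21.2 and 27.6 FPKM in WT and 16.1, 16.0 and 19.1 FPKM in the libraries labelled KO, a log2 difference of -0.40. WT 1 lay just above KO 3. Tap1, a subunit of the peptide transporter, overlapped, with KO 3 at 16.9 FPKM above WT 3 at 15.9 FPKM.

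The MHC class I genes and further antigen processing genes, which are no members, leaned the same way. Below 0 were 18 of 18, against 59.2% of all genes tested, with a median log2 difference of -0.19. None of the 18 had an unadjusted limma p under 0.05, against 4.43% of all genes tested lower at that p. In 6 every library labelled KO was below every WT library, against 12.2% of all genes tested. H2-K1, a classical class I heavy chain, had 800.3 ± 65.8 FPKM in WT and 615 ± 65.2 FPKM in the libraries labelled KO (SD, n = 3 each), a log2 difference of -0.38 (limma adjusted p = 0.376). H2-T23, Psmb10 and Erap1 had log2 differences of -0.25, -0.43 and -0.24.

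Interferon transcripts themselves were at or near 0. Of the 21 ligand genes listed, none reached the minimum mean, and Ifnb1 and the numbered Ifna genes were listed at 0 in every library. Ifng had 0.052, 0.197 and 0.155 FPKM in WT and 0, 0.073 and 0 FPKM in the libraries labelled KO, levels too low to compare. Both chains of the type I and interferon gamma receptors passed the minimum, whereas Ifnlr1, the chain specific to type III interferon, did not, with 0.068 to 0.388 FPKM in WT and 0.559 to 0.822 FPKM in the libraries labelled KO. Ifnar1 had 18.2 FPKM in WT and 18.4 FPKM in the libraries labelled KO, with a log2 difference of 0.02 and a standard error of 0.09. Ifnar2, the other chain of the type I receptor, had 55.8, 43.8 and 68.9 FPKM in WT and 38.4, 41.1 and 42.7 FPKM in the libraries labelled KO, a log2 difference of -0.43 with a standard error of 0.17 (limma adjusted p = 0.338). The interferon gamma receptor chains Ifngr1 and Ifngr2 overlapped, with log2 differences of -0.14 and -0.17.

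Il10rb, a receptor chain shared with type III interferon, and the kinase gene Jak1 did not overlap between the groups, with log2 differences of -0.19 and -0.14. Among the receptor and JAK-STAT genes named here, Ifnar2, Il10rb and Jak1 were thus lower without overlap, against 12.2% of all genes tested. Of the 10 tested genes of the receptor and JAK-STAT list, 6 were below 0 and 4 above, against 59.2% of all genes tested below 0. Their median was -0.14.

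Upstream of interferon, all 15 tested sensing adaptors and kinases were below 0, against 59.2% of all genes tested, with a median log2 difference of -0.15. Myd88, the adaptor of Toll-like receptors, was the 1 gene of this list lower at an unadjusted p under 0.05, against 4.43% of all genes. It had 21.1 ± 0.692 FPKM in WT and 15.6 ± 3.30 FPKM in the libraries labelled KO (SD, n = 3 each). Trim25, Ifi204 and Tmem173, which encodes STING, overlapped, with log2 differences of -0.33, -0.22 and -0.25. Of 15 tested brakes on interferon signalling 10 were below 0 and 5 above, against 59.2% of all genes tested below 0. Their median was -0.13, with 0 at an unadjusted p under 0.05. Nlrc5, in that list, is also the transactivator of MHC class I genes, and had a log2 difference of -0.27 with no overlap. Pias4, Socs3 and Rnaseh2b had -0.27, -0.38 and 0.26, all with overlap.

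A further 56 interferon-induced genes outside the 42 gave a similar picture. Of the 45 that were tested, 42 were below 0, against 59.2% of all genes tested, with a median log2 difference of -0.25. At an unadjusted limma p under 0.05, 9 were lower, against 4.43% of all genes tested. Lower without overlap were 17, against 12.2%. Cxcl9, the chemokine most tied to interferon gamma, had 24.5, 17.5 and 23.3 FPKM in WT and 13.7, 16.2 and 13.7 FPKM in the libraries labelled KO. Its log2 difference was -0.54, standard error 0.15 (limma adjusted p = 0.223). Oas1c and Slfn8 had log2 differences of -0.55 and -0.64, each without overlap.

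The libraries differed within each group. WT 2 was the highest library in 25 of 40 members, and WT 1 and WT 3 in 7 each. The lowest library was KO 2 in 16 members, KO 1 in 13, KO 3 in 6 and WT 3 in 5. Over the 40 members the median deviation from the gene mean was 0.16, 0.22 and 0.03 in WT, by number, and -0.15, -0.16 and -0.06 in the libraries labelled KO (log2 scale), against between -0.03 and 0.06 for all genes tested. Of the libraries from different groups, WT 3 and KO 3 lay nearest to each other. Without WT 3 the median log2 difference of the members was -0.33, and without KO 3 it was -0.31.

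**Figure D4:**
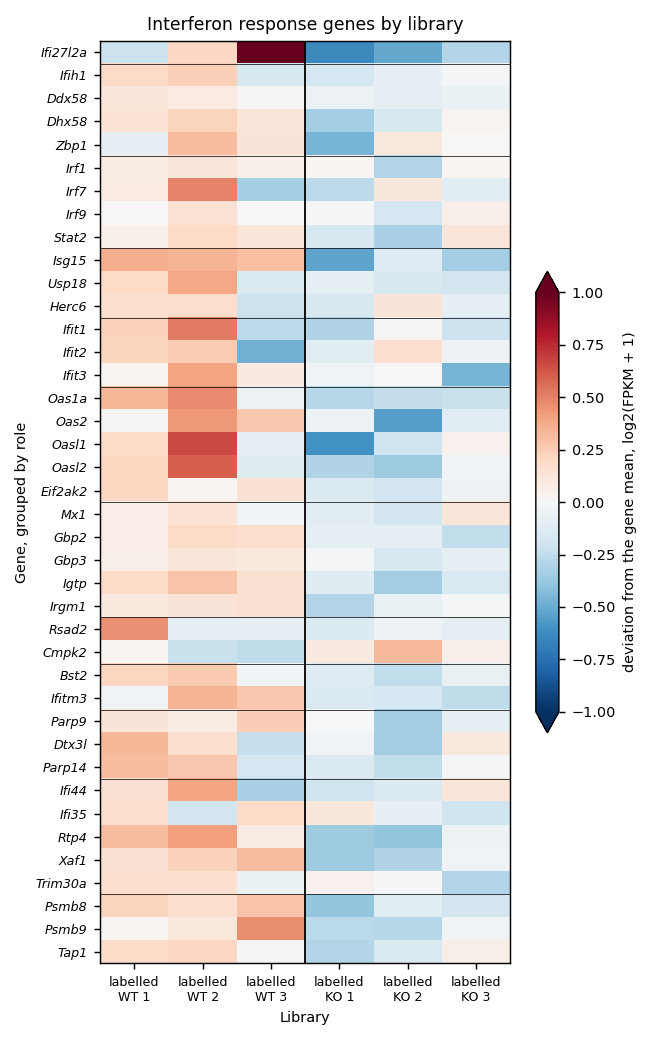
Deviation of each of 40 members from its mean over the 6 libraries (colour, log2(FPKM + 1) scale, saturated beyond 1) for each library (columns), grouped by role (rows). WT 2 is above the mean in 37 members and KO 1 in 4, and WT 3 is mixed, above the mean in 22.

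Markers of other cells moved with the groups too. For scale, 59.2% of all genes tested were below 0, 4.43% were lower at an unadjusted limma p under 0.05 and 12.2% lower without overlap. All 6 erythroid markers had lower means in the libraries labelled KO, and the 5 tested had a median log2 difference of -1.23, each with an unadjusted limma p under 0.05. Their sums were 1299.5 to 3533 FPKM in WT and 505 to 1372 FPKM in the libraries labelled KO. The 10 adipocyte markers were all below 0, with sums of 52677 to 94561 FPKM in WT and 37895 to 46344 FPKM in the libraries labelled KO. Cfd, Car3 and Fabp4 had the highest means and weigh most in these sums. Of the 10, 7 were lower without overlap and 1 was lower at an unadjusted limma p under 0.05. Plin1, Lep and Lipe overlapped, with log2 differences of -0.09, -0.13 and -0.10. Of 12 macrophage markers 10 had a lower mean in the libraries labelled KO, and none was at 0. Their sums were 1124, 1570 and 1591 FPKM in WT and 1028, 1007 and 1363 FPKM in the libraries labelled KO, which overlap, with KO 3 above WT 1. Among the single macrophage markers, Mrc1, C1qa, C1qb and C1qc were lower without overlap, each at an unadjusted limma p under 0.05. The other 8 overlapped. All 6 B lymphocyte markers were lower, with sums of 6.38 to 11.6 FPKM in WT against 3.84 to 4.87 FPKM. Of 8 monocyte and neutrophil markers 7 were lower, with sums of 57.0 to 79.0 FPKM in WT against 31.6 to 43.8 FPKM. The 7 plasmacytoid dendritic cell markers, from cells that make type I interferon, summed to 10.6 to 11.4 FPKM in WT and 8.36 to 10.9 FPKM in the libraries labelled KO, and 5 of them had a mean under 1 FPKM. Of these 7, 4 had a lower and 3 a higher mean in the libraries labelled KO. The T and NK lymphocyte sums were 7.68 to 13.2 FPKM in WT and 5.36 to 9.57 FPKM in the libraries labelled KO, and 7 of 9 markers were lower. No marker named in these lists was at 0 in all libraries. The part of these cells in the members' differences was not tested.

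The summed endothelial, progenitor and mesothelial markers overlapped between the groups. Of the 8 endothelial markers 2 had a log2 difference below 0 and 6 above, with a median of 0.14. Of the 6 progenitor markers 2 were below 0 and 4 above, with a median of 0.03. Of the 5 mesothelial markers 3 were below 0 and 2 above, against 59.2% of all genes tested below 0. The only markers of these lists without overlap were Emcn, endothelial, and Pdgfra, progenitor, both lower. Endothelial sums were 323, 337 and 150 FPKM in WT and 279, 283 and 261 FPKM in the libraries labelled KO, with WT 3 lowest. Multiciliated epithelium markers, foreign to fat, were higher in the libraries labelled KO in 11 of 11 genes. Their sums were 51.4, 4.39 and 4.14 FPKM in WT, by number, and 127, 134 and 62.9 FPKM in the libraries labelled KO. By number, the WT libraries were above the gene mean in 36, 37 and 22 of 40 interferon response genes, and the libraries labelled KO in 4, 6 and 11. Without WT 1 the median log2 difference of the members was -0.27. With the ciliated-cell covariate it was -0.25, and 2 members in place of 13 were lower at an unadjusted p under 0.05. The part of this epithelial RNA in the members' differences was not tested.

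**Figure D5:**
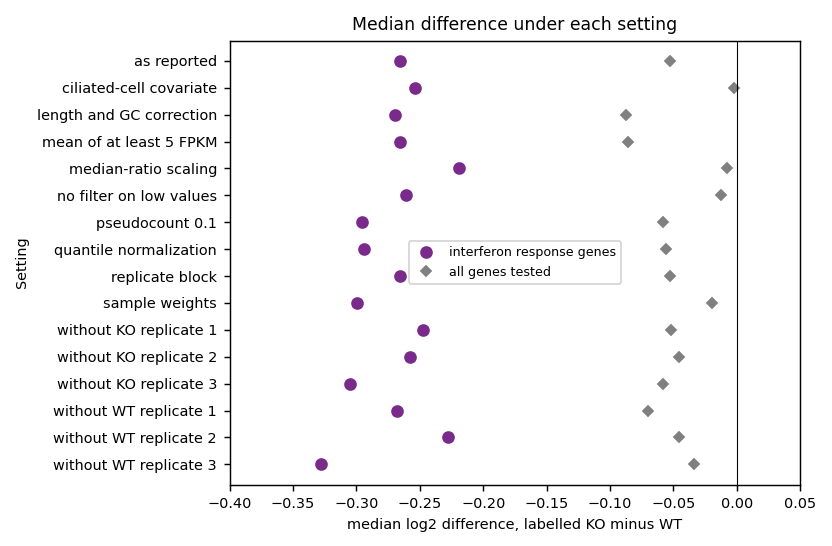
Median log2 difference between the libraries labelled KO and WT (horizontal axis) for the interferon response genes and for all genes tested, under each processing setting (rows). The members' median stays between -0.33 and -0.22 in the 15 alternatives, below that of all genes tested in each.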

How the data were processed

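RNA of 6 samples was extracted with TRIzol, and the libraries are strand-marking mRNA libraries (TruSeq), per the labels' protocols. The submitters' processing notes name mm10 and the tools STAR 2.5.4, Cufflinks, and Cuffdiff in version 2.2.1. The sources used here give no annotation, filter or library scaling. The deposited values were read as FPKM, inferred from those tools and from the values. No counts are held, so no count model was run.

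The table's 21853 rows hold 24 repeats of a symbol, of which the most abundant row stayed. Values were tested as log2(FPKM + 1), which understates changes of low genes, where the mean reached 1 FPKM, with limma 3.58.1 in R 4.3.3, a mean-variance trend and no term but the group, at an adjusted p under 0.05 (Benjamini-Hochberg). The fit was also run on simulated data with independent noise for each gene and equal spread in all libraries. That simulation did not copy the differences between libraries described here, and no result here rests on it. GENCODE vM21 (GRCm38, the assembly of mm10) gave transcript lengths and positions. Named in full were Ifi27l2a, the 14 tested members of smallest p, the 4 of highest mean and the 3 of highest log2 difference; of each pathway list at most 4 genes of smallest p, with fixed receptor genes. A result of the receptor and JAK-STAT list is not reported here. The members, lists, markers and alternatives were chosen with earlier results of these data known, and the counts below 0 and at an unadjusted p were added after the data were seen. The alternatives were other pseudocounts, filters and scalings, sample weights, a length and GC correction, a covariate from 11 ciliated-cell markers, a replicate block and each library left out in turn.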

Additional observations from a re-analysis of the deposited data

How the results depend on the processing

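No member passed limma's adjusted threshold under 14 of 15 alternatives. With sample weights, where WT 1 has the largest weight and WT 3 the smallest, 13 passed, all lower in the libraries labelled KO, among 970 genes passing (7.74%). Without WT 1, 482 genes passed and 0 were members. With a library left out 0 members passed, 5 to 18 were lower at an unadjusted p under 0.05 (175 to 1051 of all 12539 genes) and 21 to 32 lower without overlap (1975 to 2791 of all genes), the last against 20 (1526) with all libraries. Fewer libraries make overlap rarer by construction. The median log2 difference of the members ran from -0.33 to -0.23 with a library left out and from -0.30 to -0.22 in the other alternatives. At an unadjusted p under 0.05 the count of 13 lower members became 25 with sample weights (1981 of all genes) and 2 once the ciliated-cell covariate was added (98 of all genes), against 555 of all genes at first; the covariate is partly confounded with group. The replicate block gave 8 (566 of all genes), changed no adjusted call and left every difference the same. Libraries of the same number did not stand out by deviating together: r over genes was 0.23, -0.20 and 0.22 for numbers 1, 2 and 3. For libraries of different numbers r ran from -0.48 to 0.43, so the numbers were not taken as pairs. Reversed were Ifi27l2a with the covariate (0.050), and Ifit2, near 0 at first, with the covariate (-0.33), quantile normalization (-0.12), sample weights (-0.23), without KO 2 (-0.08) and without WT 3 (-0.24); with 1 library left out Ifit2 ran from -0.24 to 0.13. The cause of these changes was not tested. Read depth is unknown and limits the reading of low genes such as Mx1 and Oas3.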
